A study of Rattus norvegicus with 44 samples.

Results

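Immediate early genes are the transcripts that neurons make first after they are stimulated, and 10 of them (Fos, Fosb, Junb, Arc, Egr1, Egr2, Npas4, Nr4a1, Dusp1 and Ier2) were followed through the dentate gyrus (DG) of 44 male F344 rats. The set was given as a list of symbols, chosen with earlier results of these data known. A gene's value is the sum of the table rows that carry its symbol under its gene identifier. All 10 symbols were found, 10 of the 18347 genes of the table, and all 10 passed the filter on low values (a mean normalized value of at least 5), which 15598 genes passed. Poly(A) RNA of the DG from 1 hemisphere was sequenced, with 1 library per rat. The young rats (YNG, n = 10) were 6 months old and were listed under vehicle. The older rats entered treatment at 12 months and received by oral gavage vehicle (AV, n = 12), ABT-263 at 12 mg/kg (AA, n = 11), or dasatinib at 1.2 mg/kg with quercetin at 12 mg/kg (ADQ, n = 11). These drugs are senolytics, given to kill senescent cells: ABT-263 inhibits anti-apoptotic BCL-2 proteins, dasatinib is a tyrosine kinase inhibitor and quercetin a plant flavonol. A cycle was 5 days of gavage followed by a 2-week break, and 8 cycles over 6 months were followed by behavioral tests, a final round of treatment and, 2 weeks later, euthanasia under brief isoflurane by decapitation. The older rats were thus about 18 months old at collection, while the deposited labels give 12 months. According to the paper, some rats had body weight and grip strength measured just before collection. By its group sizes these were all YNG and AA rats but only part of the AV and ADQ rats. Which sequenced rats were left out is not given, and the part of this handling in the levels was not tested. The YNG rats took the same memory tests, so age, time in treatment and the months in the study cannot be told apart in comparisons with YNG.

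Immediate early genes are transcribed within minutes of synaptic activity, calcium entry or growth factor signaling, without new protein synthesis. The kinases of the ERK and CaMK pathways act on factors already bound at the promoters, CREB at cyclic AMP response elements (CRE) and SRF with its partners at CArG boxes. Most products are transcription factors that start the slower programs of plasticity, and their transcripts decay quickly. In the DG, where few granule cells fire in any one environment, Fos, Arc and Egr1 are widely used to mark the cells that were active.

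Promoter sequences of 8 of the 10 genes were matched by symbol in the RefSeq table of the GRCr8 build, and Fos and Arc had no entry. The 250 bases before the start site are printed for Dusp1 (chr10:17184603-17184852, plus strand), Junb (chr19:40080876-40081125, plus strand), Nr4a1 (chr7:134259888-134260137, plus strand), Egr2 (chr20:21054442-21054691, minus strand), Ier2 (chr19:40399123-40399372, plus strand) and Npas4 (chr1:211716103-211716352, minus strand), the matched genes that were called in a comparison between the older groups further on. Capitals mark the CRE letters TGACGTCA, their shorter form CGTCA or TGACG, and the CArG box, each on either strand, and the lines run 5′ to 3′ along the gene's strand. The shorter form is part of TGACGTCA, so a full match also counts as 2 short ones.
Dusp1: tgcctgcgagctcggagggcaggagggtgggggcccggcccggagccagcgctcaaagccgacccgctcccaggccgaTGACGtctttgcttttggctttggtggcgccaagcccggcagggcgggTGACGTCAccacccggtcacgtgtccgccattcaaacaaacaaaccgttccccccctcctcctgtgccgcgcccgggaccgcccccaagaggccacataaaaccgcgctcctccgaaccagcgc
Junb: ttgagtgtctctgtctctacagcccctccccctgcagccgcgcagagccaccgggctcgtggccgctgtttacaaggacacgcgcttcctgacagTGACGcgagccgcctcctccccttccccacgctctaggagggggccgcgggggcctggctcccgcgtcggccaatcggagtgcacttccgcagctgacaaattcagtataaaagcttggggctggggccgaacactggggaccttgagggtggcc
Nr4a1: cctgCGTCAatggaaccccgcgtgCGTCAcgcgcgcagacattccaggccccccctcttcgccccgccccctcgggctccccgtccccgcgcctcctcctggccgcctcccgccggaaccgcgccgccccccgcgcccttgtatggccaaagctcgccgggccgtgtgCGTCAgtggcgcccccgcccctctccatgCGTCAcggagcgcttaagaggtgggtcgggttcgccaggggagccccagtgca
Egr2: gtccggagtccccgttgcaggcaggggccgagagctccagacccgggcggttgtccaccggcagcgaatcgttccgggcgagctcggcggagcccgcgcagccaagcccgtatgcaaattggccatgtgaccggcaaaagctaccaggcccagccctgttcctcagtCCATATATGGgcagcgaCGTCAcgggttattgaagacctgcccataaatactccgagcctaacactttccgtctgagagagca
Ier2: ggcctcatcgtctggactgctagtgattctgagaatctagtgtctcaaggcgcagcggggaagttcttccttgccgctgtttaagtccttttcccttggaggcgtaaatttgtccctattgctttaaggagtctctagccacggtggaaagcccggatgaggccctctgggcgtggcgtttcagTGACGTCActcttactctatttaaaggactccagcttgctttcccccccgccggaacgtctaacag
Npas4: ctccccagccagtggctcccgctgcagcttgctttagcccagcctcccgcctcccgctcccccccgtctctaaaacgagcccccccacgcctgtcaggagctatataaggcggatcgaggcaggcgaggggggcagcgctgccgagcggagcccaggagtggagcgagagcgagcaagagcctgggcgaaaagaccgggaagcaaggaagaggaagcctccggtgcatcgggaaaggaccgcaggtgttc
The full CRE letters stood in the windows of Dusp1 and Ier2, 2 of 8, against 1.59% of the 33465 promoter windows of the table. The shorter form was found in 6 of the 8 windows, those of Dusp1, Ier2, Nr4a1, Egr1, Egr2 and Junb, against 18.2% of all windows, and Nr4a1 alone held 4 copies. CArG boxes stood in Egr1 and Egr2, against 1.5% of all windows. None of these letters stood in the windows of Fosb and Npas4. The AP-1 letters TGANTCA were in none of the 8 windows and in 6.34% of all windows. These are matches of letters only.

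The level of a transcript in whole DG tissue depends on the number of cells that make it and on the RNA of each, and the 2 cannot be told apart here. Library depth was estimated at 10166584 to 24328310 reads per rat. Of the 440 values of the 10 genes, 437 were whole reads to within 0.05, the lowest at 4 reads (Egr2 in a YNG rat). Of 7 markers of granule cells, Prox1, C1ql2, Dsp, Calb1 and Pdzd2 had means of 771 to 5952, and Tdo2 and Lct were near 0 (0.661 and 1.47). The summed level of the 7 ranged from 10066 to 14970 in YNG, 6967 to 13753 in AV, 3734 to 14591 in AA and 10502 to 13456 in ADQ. The summed level of 6 markers of neighboring CA1 pyramidal cells ranged from 2487 to 17752 in YNG, 2047 to 28789 in AV, 1911 to 44570 in AA and 2461 to 11793 in ADQ. Differences are those between group means of log2(normalized value + 1), given ± SE. A gene was called higher or lower at the unadjusted p of 0.05 that the study used, in limma over all 15598 genes, with the adjusted p (Benjamini-Hochberg) beside it.

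The 3 AP-1 subunits did not share 1 pattern. Fos, which pairs with Jun proteins to form AP-1, ranged from 54.1 to 129 in YNG (median 106), from 58.2 to 193 in AV (median 111), from 76.0 to 247 in AA (median 135) and from 54.1 to 228 in ADQ (median 71.7). All 11 AA rats lay over the ADQ median, 9 of 11 ADQ rats lay under the AA median, and the ranges overlapped. Fos was higher in AA than in ADQ by 0.72 ± 0.22 (p = 0.00196, adjusted p = 0.981), and higher in AA than in YNG by 0.57 ± 0.22 (p = 0.0145, adjusted p = 0.102). Neither drug group differed from AV past the threshold (0.36 ± 0.21 with p = 0.1004 in AA, -0.36 ± 0.21 with p = 0.0999 in ADQ).

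Junb, a Jun protein that binds DNA with Fos or Fosb, ranged from 483 to 698 in YNG (median 564), 413 to 815 in AV (median 611), 436 to 1180 in AA (median 706) and 318 to 1064 in ADQ (median 466). Of the ADQ rats, 10 of 11 were under the AV median, and the remaining rat, 4004, was over the highest AV rat. Junb was lower in ADQ than in AV by -0.34 ± 0.15 (p = 0.0289, adjusted p = 0.480) and higher in AA than in ADQ by 0.53 ± 0.15 (p = 0.00115, adjusted p = 0.981). Neither AV nor AA differed from YNG past the threshold (0.05 ± 0.15 and 0.25 ± 0.16).

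Fosb, which also gives the truncated and long-lived product known as delta FosB, was higher in each of the 3 older groups than in YNG. It ranged from 213 to 289 in YNG (median 247), 206 to 402 in AV (median 317), 228 to 411 in AA (median 348) and 242 to 414 in ADQ (median 304). In AV 11 of 12 rats and in ADQ 10 of 11 rats were over the YNG median, and 5 of the 10 YNG rats were under the lowest ADQ rat. The differences from YNG were 0.30 ± 0.11 in AV (p = 0.00674, adjusted p = 0.106), 0.32 ± 0.11 in AA (p = 0.00444, adjusted p = 0.0637) and 0.29 ± 0.11 in ADQ (p = 0.00959, adjusted p = 0.0762), from 1 shared YNG group. Between the older groups Fosb differed by 0.03 or less (p of 0.768 to 0.935). The table splits Fosb over 2 rows with 52.4% and 47.6% of its signal and does not say which transcript a row stands for. The row with the higher mean over all rats had group means of 133 (YNG), 166 (AV), 168 (AA) and 154 (ADQ), with SDs of 42.98 to 50.2, and the other row had 116, 144, 150 and 154, with SDs of 29.8 to 62.5. With the row of higher mean alone, none of the 3 differences passed (p = 0.0694, 0.0519 and 0.222).

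**Figure D1:**
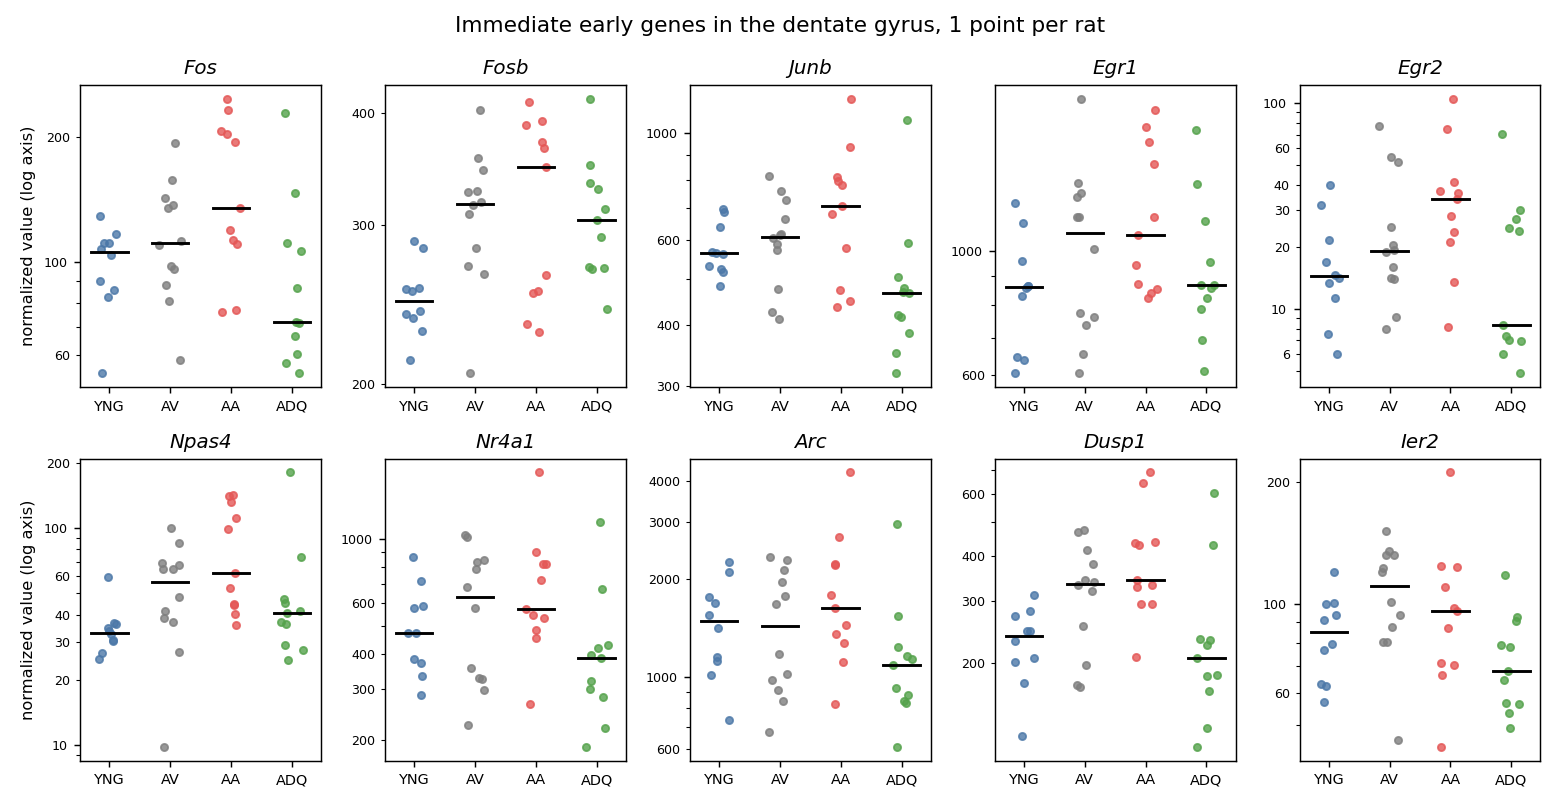
Normalized value of each gene (log axis, arbitrary units after median-ratio scaling) in each rat of the 4 groups, with the group median as a bar. Fosb is the gene called higher than YNG in all 3 older groups (medians 317, 348 and 304 against 247), while for Fos, Junb and Dusp1 the AA rats sit over most ADQ rats, with ADQ rat 4004 as the high exception.

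The zinc finger factors of the EGR family differed in spread. Egr1, bound at many synaptic genes and needed for lasting forms of memory, ranged from 605 to 1219 in YNG (median 861), 605 to 1867 in AV (median 1077), 823 to 1783 in AA (median 1066) and 610 to 1638 in ADQ (median 868). It was higher in AA than in YNG by 0.43 ± 0.18 (p = 0.0183, adjusted p = 0.113), where 8 of 11 AA rats were over the YNG median. No other comparison of Egr1 passed, with AA against ADQ at 0.30 ± 0.17 (p = 0.0919).

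Egr2, known in neurons as a late-phase plasticity gene and in Schwann cells as a regulator of myelin, was the scarcest of the 10, with 4 to 109 reads per rat. It ranged from 6.02 to 40.04 in YNG (median 14.3), 7.94 to 76.8 in AV (median 19.03), 8.15 to 105 in AA (median 34.1) and 4.84 to 70.3 in ADQ (median 8.34). Of the AA rats, 10 of 11 were over the ADQ median and the ranges overlapped. Egr2 was higher in AA than in ADQ by 1.10 ± 0.41 (p = 0.00982, adjusted p = 0.981) and than in YNG by 0.97 ± 0.42 (p = 0.0252, adjusted p = 0.132).

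Npas4, a factor switched on in neurons by calcium entry and used to adjust inhibitory synapses, had the lowest p of the 10 genes in AA against YNG. It ranged from 24.9 to 59.4 in YNG (median 33.04), 9.78 to 100.2 in AV (median 56.3), 35.8 to 143 in AA (median 62.5) and 24.6 to 181 in ADQ (median 40.7). All 11 AA rats were over the YNG median, and 7 of 10 YNG rats were under the lowest AA rat. Npas4 was higher in AA than in YNG by 1.08 ± 0.31 (p = 0.00101, adjusted p = 0.0431). It was also higher in AA than in ADQ (0.69 ± 0.30, p = 0.0259, adjusted p = 0.981). At the edge of the threshold, Npas4 was higher in AA than in AV (0.59 ± 0.29, p = 0.0490, adjusted p = 0.999). The call against AV was lost when any of 26 rats was left out, among them AV rat 3999, the lowest of all (0.40, p = 0.143 without it). Many of the 26 were YNG or ADQ rats, which enter this comparison only through the shared estimate of the spread. Without any of those the difference stayed at 0.59, with limma p of 0.0506 to 0.0517. By a two-sided permutation test neither passed (p = 0.0985 against AV and 0.0534 against ADQ).

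Nr4a1, an orphan nuclear receptor of the rapid response, ranged from 287 to 865 in YNG (median 473), 225 to 1034 in AV (median 631), 268 to 1710 in AA (median 571) and 189 to 1150 in ADQ (median 385). It was higher in AA than in ADQ by 0.75 ± 0.28 (p = 0.00947, adjusted p = 0.981), with 10 of 11 AA rats over the ADQ median. Its other comparisons did not pass, and ADQ against AV came to -0.50 ± 0.27 (p = 0.0711).

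Arc, whose mRNA travels to active dendrites and whose protein helps to remove AMPA receptors from synapses, ranged from 739 to 2262 in YNG (median 1486), 679 to 2336 in AV (median 1430), 823 to 4261 in AA (median 1625) and 608 to 2954 in ADQ (median 1090). AV and YNG differed by -0.05 ± 0.24 (p = 0.854). Arc was higher in AA than in ADQ by 0.64 ± 0.24 (p = 0.0110, adjusted p = 0.981), and 10 of 11 AA rats were over the ADQ median.

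Dusp1, a phosphatase that switches off MAP kinases in the nucleus, passed the threshold in 4 of the 6 comparisons, more than any other of the 10. It ranged from 124 to 311 in YNG (median 238), 171 to 474 in AV (median 335), 208 to 690 in AA (median 343) and 116 to 603 in ADQ (median 206). Of the AV rats 8 of 12, of the AA rats 8 of 11 and of the ADQ rats 2 of 11 were over the highest YNG rat. The difference from YNG was 0.45 ± 0.22 in AV (p = 0.0458, adjusted p = 0.225), 0.77 ± 0.22 in AA (p = 0.00127, adjusted p = 0.0462) and -0.02 ± 0.22 in ADQ (p = 0.918). ADQ was lower than AV by -0.47 ± 0.21 (p = 0.0319, adjusted p = 0.491) and AA higher than ADQ by 0.79 ± 0.22 (p = 0.000721, adjusted p = 0.981), the fifth smallest p among all genes in that comparison. The call in AV against YNG was lost without any of 13 rats, and then lay between 0.36 and 0.46.

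Ier2, a small nuclear protein induced early by growth factors, ranged from 56.9 to 120 in YNG (median 85.1), 45.9 to 151 in AV (median 110), 44.1 to 211 in AA (median 95.9) and 49.3 to 118 in ADQ (median 68.1). Of the ADQ rats, 10 of 11 were under the AV median. Ier2 was lower in ADQ than in AV by -0.52 ± 0.19 (p = 0.00791, adjusted p = 0.384), while AA against ADQ missed the threshold (0.38 ± 0.19, p = 0.0529).

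**Figure D2:**
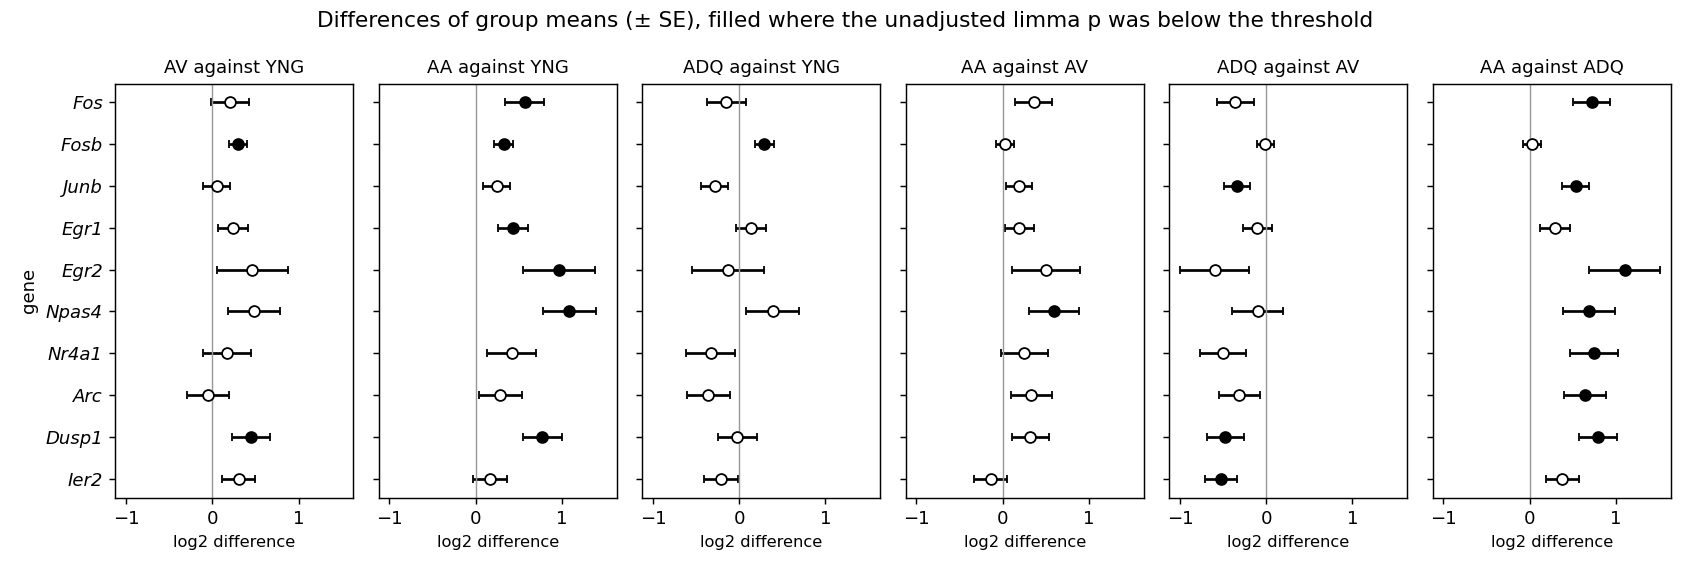
Log2 difference of group means (x axis) for each gene (y axis) in the 6 comparisons, with bars of 1 SE, and filled points where the unadjusted limma p was below 0.05. In AA against ADQ 7 points are filled and all 10 lie over 0, and in ADQ against AV 3 are filled and all 10 lie under 0.

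Counted together, 9 of the 10 genes had a higher mean in AA than in AV, Ier2 excepted, and all 10 a lower mean in ADQ than in AV. The genes went together over the same rats (median r of 0.566 between pairs with group means removed, given further on). The counts of genes are therefore not counts of separate results. AA against ADQ was the comparison in which most of the genes passed. In that comparison 7 of 10 genes were called higher and 0 lower, where 4.53% of all genes were called and 2.13% were called higher. The median difference was 0.67 over the 10 genes and 0.00 over all genes (-0.0031). None of the 10 had an adjusted p below 0.05 (limma), as for 0% of all genes. In ADQ against AV 3 genes were called, all lower, where 9.32% of all genes were called and 5.9% were lower. The median of the 10 genes was -0.35, and 0% of all genes passed after adjustment. In AA against AV 1 gene was called higher, where 4.51% of all genes were called, 1.4% as higher and 0% after adjustment, and the median of the 10 was 0.28.

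Against YNG, 6 genes were called higher in AA, where 26.6% of all genes were called and 12.6% were higher. Npas4 and Dusp1 kept an adjusted p below 0.05, which 3.85% of all genes had. In AV 2 genes were called higher, where 21.3% of all genes were called, 10.6% were higher and 2.35% passed after adjustment. In ADQ Fosb alone was called, where 28.1% of all genes were called, 13.5% were higher and 7.08% passed after adjustment. The 10-gene medians were 0.42 in AA, 0.27 in AV and -0.14 in ADQ. The 3 comparisons share the YNG rats, and AA and ADQ against AV share the AV rats.

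Rat by rat, most of the genes rose and fell together. The mean over the 10 standardized log2 values was highest in AA rat 4107 (1.80 SD), ADQ rat 4004 (1.78), AA rat 3984 (1.47) and AA rat 3983 (1.28), and lowest in ADQ rat 4074 (-1.58), AV rat 3999 (-1.11) and YNG rat V10 (-1.05). Rat 4004 was the highest ADQ rat for each of the 10 genes and stood at 2954 for Arc, where the other ADQ rats ended at 1537. Rat 4107 had the highest Arc, Nr4a1, Junb and Ier2 of all 44 rats, with Fosb at 233. Without rat 4004, 9 genes were called in AA against ADQ (6.89% of all genes), with Fosb the exception (0.08 ± 0.11, p = 0.475), and Junb reached p = 2.16e-05. In ADQ against AV the count went to 6 without it (10.2% of all genes) as Egr2, Fos and Nr4a1 joined, and in ADQ against YNG to 3 (28.2% of all genes) as Junb (-0.40 ± 0.14) and Arc (-0.50 ± 0.24) joined as lower. Without AV rat 4009 (8.6% of all genes) or ADQ rat 4074 (7.57%), Ier2 alone was called in ADQ against AV, and without AV rat 4011 the count was 5 (11.1% of all genes).

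**Figure D3:**
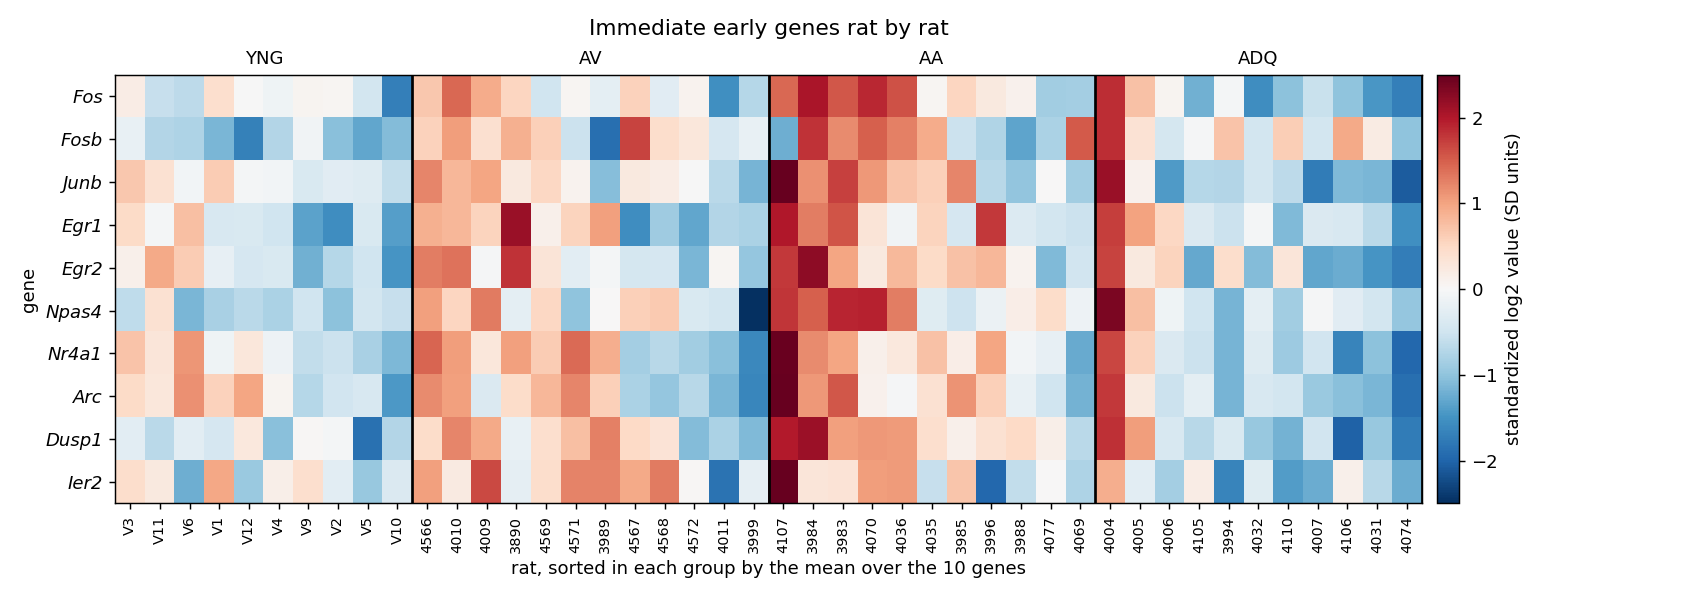
Standardized log2 value (color, in SD units over all 44 rats) of each gene (rows) in each rat (columns, by group and sorted by the mean over the 10 genes). Whole columns share a color, such as ADQ rat 4004 (red) and ADQ rat 4074 (blue), while the row of Fosb often departs from its column.

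Over the 44 rats with group means removed, 37 of the 45 pairs of genes had a Pearson correlation with an adjusted p below 0.05 (two-sided permutation test, 100000 resamples, adjusted over 45 pairs), and 36 by Spearman's rho. The median r was 0.566. The share among pairs of other genes was not computed, so these counts have no background beside them. The closest pair was Arc and Nr4a1, at r = 0.937 and rho = 0.922 (p = 1e-05 for each, the smallest these permutations can give, adjusted p = 2.5e-05 and 5e-05). Without the 2 rats farthest from the median of Arc, r was 0.915, and within the runs of rat numbers described further on it was 0.916 and 0.952. Egr1 and Nr4a1 followed at r = 0.872 and rho = 0.880 (permutation p = 1e-05 for each, adjusted p = 2.5e-05 and 5e-05), with 0.869 without 2 rats. Outside the pairs with Fosb, the lowest was Ier2 with Egr2, at r = 0.146 and rho = 0.0792 (permutation p = 0.346 and 0.609, adjusted p = 0.371 and 0.653) and at r = 0.104 without 2 rats.

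Fosb was the exception among the pairs. Of its 9 pairs 3 passed, those with Fos, Junb and Npas4, while 34 of the 36 pairs without Fosb passed. With Nr4a1 its r was 0.0283 and its rho 0.0667 (permutation p = 0.856 and 0.667, adjusted p = 0.856 and 0.698), and 0.0561 without 2 rats. Its spread between rats of a group was also small, an SD of 0.25 on the log2 scale, smaller than in most of the 13704 genes with a mean of at least 20 (34.1% had a smaller SD). The other 9 genes varied more than most genes, from Junb (69.1% of genes had a smaller SD) to Npas4 (96.6%) and Egr2 (98.6%).

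**Figure D4:**
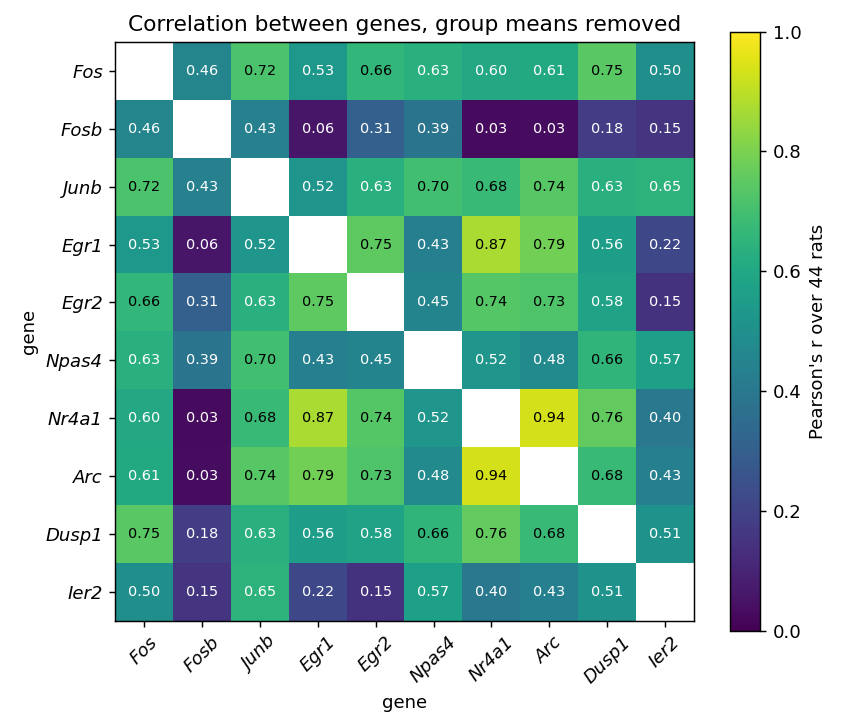
Pearson's r (color and number) between each pair of genes over 44 rats after removal of group means. Arc, Nr4a1 and Egr1 form the block with the highest values, up to 0.94, and the row of Fosb holds the lowest, down to 0.03.

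Outside the 10 genes, the 8 genes of 13704 whose log2 values followed the mean of the 10 most closely (Pearson's r over 44 rats, group means removed, given without a test) were Egr4 (r = 0.775), Kctd15 (0.708), Usp21 (0.673), Atat1 (0.661), Vstm2b (0.647), Msx1 (0.647), Ca11 (0.638) and Hrh3 (0.638). Egr4 is another EGR family factor of the rapid response, Atat1 acetylates tubulin and Hrh3 is a histamine receptor of neurons. Egr4 ranked among the 10 themselves, over Npas4 (0.763) and Egr1 (0.762). Ier2 followed the mean at 0.600 and Fosb at 0.394, although both are part of it.

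The mean of the 10 genes also moved with the markers of CA1 pyramidal cells, at r = 0.510 and rho = 0.507 over the 44 rats, at 0.499 without the 2 rats of most extreme CA1 markers, and at 0.405 in the lower-numbered and 0.609 in the higher-numbered rats, the 2 runs of rat numbers described next. With the CA1 markers as a covariate, 7 genes were called in AA against ADQ, where 3.53% of all genes were, and the median of the 10 went from 0.67 to 0.50. In AA against YNG 6 were called (27% of all genes). The count in ADQ against AV was 2 (7.73% of all genes), where Dusp1 moved to -0.38 (p = 0.0519), and Npas4 missed the threshold in AA against AV (0.59, p = 0.0518). Markers of dentate granule cells (r = -0.0850) and of choroid plexus (0.00618) went less closely with the 10 genes, and oligodendrocyte markers stood at 0.321. The mean log2 level of the CA1 markers was 9.36 in AA, 9.27 in AV, 9.16 in YNG and 8.85 in ADQ. It was thus highest in AA and lowest in ADQ, with SDs of 0.909 to 1.47 within the groups. The part of CA1 tissue in the levels of the 10 genes was not tested beyond the covariate fit.

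The rats fall into 2 runs of rat numbers. The lower is V1 to V6 with rats up to 4011 (6 YNG, 6 AV, 5 AA and 5 ADQ). The higher is V9 to V12 with rats from 4031 (4, 6, 6 and 6). No label says what the numbers stand for. In the higher run the AV rats are 4566 to 4572 and the AA and ADQ rats 4031 to 4110. Block of numbers and treatment thus cannot be told apart there in comparisons with AV, and the run as a covariate does not separate them. In the higher-numbered rats 8 genes were called in AA against ADQ (4.15% of all genes), with a median of 0.86. In the lower-numbered rats 0 were called in limma (5.98% of all genes), with a median of 0.30 and 9 of 10 genes still higher in AA. In ADQ against AV 6 were called in the higher-numbered rats (9.74% of all genes, median -0.65) and 0 in the lower-numbered (5.67% of all genes, median 0.01). Rat 4004 belongs to the lower-numbered run.

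Fos and Dusp1 are given in full because the difference between the runs passed for them. In the higher-numbered rats Fos ranged from 54.1 to 71.7 in ADQ and from 76.0 to 232 in AA, and Dusp1 from 116 to 206 in ADQ and from 208 to 646 in AA, so that neither gene's ranges overlapped. These were 2 of the 10 genes, where 0.288% of all genes had ranges that did not overlap and 0.18% had all AA rats over all ADQ rats. In the lower-numbered rats Fos ranged from 86.7 to 228 in ADQ and 113 to 247 in AA, and Dusp1 from 225 to 603 and 293 to 690, and both overlapped. The difference AA against ADQ was 0.28 (p = 0.346) in the lower-numbered and 1.08 (p = 0.000253) in the higher-numbered rats for Fos, and 0.32 (p = 0.327) and 1.19 (p = 2.44e-05) for Dusp1. The difference between the runs passed for these 2 genes in AA against ADQ (p = 0.0491 and 0.0375) and in ADQ against AV (p = 0.0112 and 0.0177), and for Dusp1 in ADQ against YNG (p = 0.00621), all with adjusted p of 0.327 or more. These are 5 of 60 terms for the 10 genes (8.33%), where 10.2% of the terms of all genes passed. The 10.2% pools comparisons with unlike shares. Over all genes the runs differed at this threshold for 4.37% in AA against ADQ, 4.03% in ADQ against AV, 8.89% in ADQ against YNG, 4.71% in AA against AV, 17.3% in AA against YNG and 21.8% in AV against YNG. In the last 3 comparisons none of the 10 genes passed. In each of the first 2, AA against ADQ and ADQ against AV, 2 of the 10 genes passed. With the run as a covariate, 8 genes were called in AA against ADQ (4.86% of all genes) and 3 in ADQ against AV (9.59% of all genes). In AA against YNG the medians over the 10 genes were 0.45 and 0.47.

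**Figure D5:**
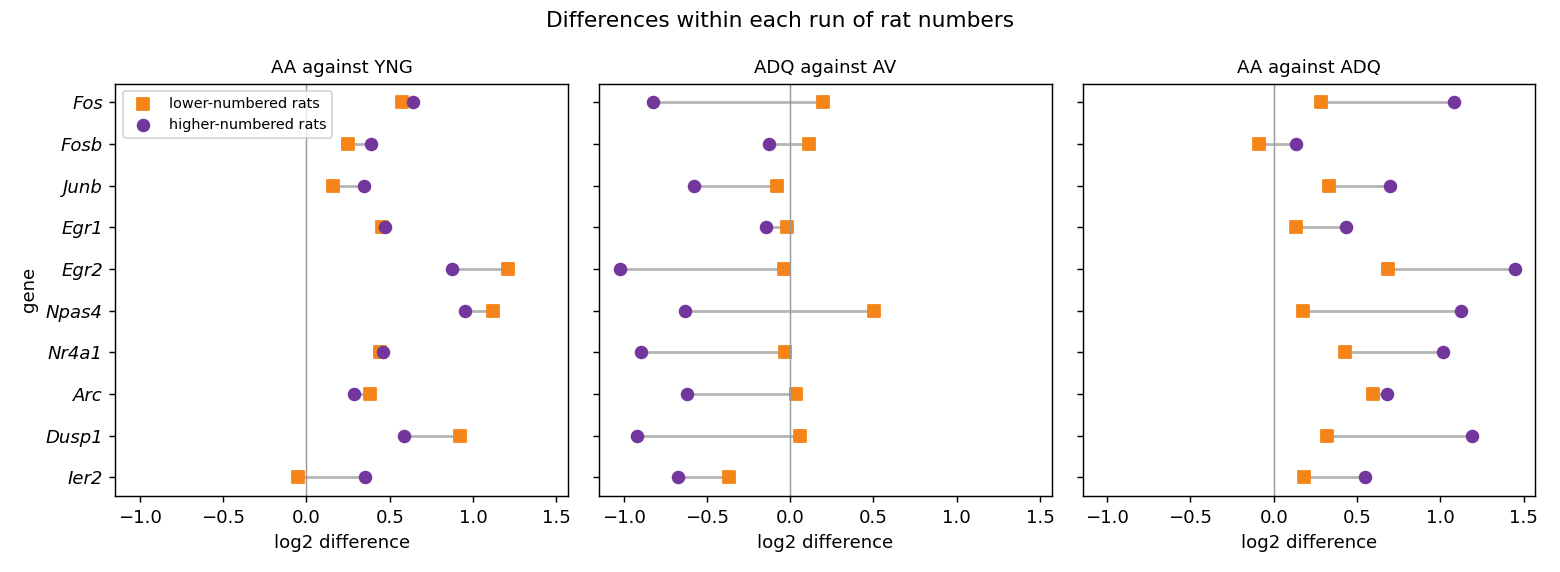
Log2 difference (x axis) of each gene (y axis) within the lower-numbered rats (squares) and the higher-numbered rats (circles) for 3 comparisons. In ADQ against AV the circle lies left of the square for each of the 10 genes, and in AA against ADQ right of it, as for Dusp1 (squares at 0.06 and 0.32, circles at -0.92 and 1.19).

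The wider program was read from 6 lists of related genes, chosen with earlier results of these data known. Where a gene of these lists is given with an unadjusted p (limma) alone, its adjusted p was not below 0.05. Of 27 other rapid primary response genes tested, 11 (40.7%) were called in AV against YNG, all as higher, where 21.3% of all genes were called. In AA against YNG 8 were higher and 1 lower (33.3%, against 26.6% of all genes), and in ADQ against YNG 5 were higher and 1 lower (22.2%, against 28.1%). In ADQ against AV 6 were lower and 1 higher (25.9%, against 9.32%), in AA against ADQ 4 were higher and 1 lower (18.5%, against 4.53%), and in AA against AV 1 was higher and 3 lower (14.8%, against 4.51%).

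Klf4, a factor of endothelial and other cells, had means of 56.2 (YNG), 116 (AV), 82.3 (AA) and 67.5 (ADQ). It was higher in AV than in YNG by 1.07 ± 0.20 (adjusted p = 0.0022), and lower than AV in AA (-0.42 ± 0.20, p = 0.0389) and in ADQ (-0.74 ± 0.20, p = 0.000547). Ccn1, a matricellular protein, rose from 4.32 in YNG to 23.7 in AV and 22.3 in AA (adjusted p = 0.0324 and 0.0250), with 12.2 in ADQ. Pim1, a survival kinase, was higher in AV than in YNG by 0.74 ± 0.19 (adjusted p = 0.0296). Of 6 endothelial markers 5 were in the table, none near 0 (means of 162 to 1151), and their mean log2 level had the same order of groups as Klf4, at 8.07 (YNG), 8.88 (AV), 8.55 (AA) and 8.32 (ADQ). Their summed level ranged from 990 to 3660 in the YNG rats, from 1867 to 7871 in the AV rats, from 2036 to 3470 in the AA rats and from 1850 to 2467 in the ADQ rats. The part of endothelial cells in the levels of these list genes was not tested.

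Of 5 other AP-1 subunits and partners, 1 (20%) was higher in AV than in YNG, 2 (40%) in AA and 2 (40%) in ADQ. Over all genes 21.3%, 26.6% and 28.1% were called in these comparisons. In ADQ against AV 1 was lower (20%, against 9.32%), and in AA against ADQ 1 was higher (20%, against 4.53%). None of the 5 passed in AA against AV (limma). Atf3, a stress-induced factor of low level here, had the smallest p. It rose from a mean of 4.77 in YNG to 15.8 in AV (1.41 ± 0.32, adjusted p = 0.00906) and 11.6 in AA, and was lower in ADQ (7.33) than in AV by -1.09 ± 0.31 (p = 0.000936, adjusted p = 0.197). Jund was higher in AA than in YNG (0.38 ± 0.16, p = 0.0175) and Fosl1 in ADQ than in YNG (0.41 ± 0.18, p = 0.0268).

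Of 6 other EGR and NR4A genes with the EGR co-repressors, Egr4 (0.42 ± 0.19, p = 0.0342) and Nr4a2 (0.47 ± 0.22, p = 0.0370) were called higher in AA than in YNG. This is 33.3%, against 26.6% of all genes, and none of the 6 passed in the other 5 comparisons. The next smallest p was that of Nr4a3 in ADQ against AV (0.30 ± 0.16, p = 0.0676). Of 5 other MAP kinase phosphatases, Dusp6 alone was called, in AA against YNG (0.48 ± 0.21, p = 0.0260), a share of 20% against 26.6% of all genes. In the same comparison Dusp5 stood at 0.55 ± 0.28 (p = 0.0525) and Dusp2 at -0.23 ± 0.17 (p = 0.184).

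Delayed genes follow an activity burst by hours. Of 15 delayed secreted or synaptic genes tested, 2 (13.3%) were lower in AV than in YNG, Acan and Syt4, and 2 in AA, Pcsk1 and Penk, shares below those of all genes. In ADQ 1 was lower than YNG, Penk (6.67%, against 28.1% of all genes). In ADQ against AV 1 was higher (6.67%, against 9.32%), and in AA against ADQ 1 was lower (6.67%, against 4.53%). None of the 15 passed in AA against AV (limma). Acan, a proteoglycan of perineuronal nets, differed between AV and YNG by -0.35 ± 0.13 (p = 0.0106). Pcsk1, which cleaves peptide precursors, was lower in AA than in YNG (-0.31 ± 0.12, p = 0.0120) and than in ADQ (-0.32 ± 0.12, p = 0.00963). Penk, an opioid precursor, was lower than YNG in ADQ (-0.40 ± 0.17, p = 0.0192) and in AA (-0.34 ± 0.17, p = 0.0490). Syt4, a synaptotagmin named after its values were seen, was lower in AV than in YNG (-0.20 ± 0.09, p = 0.0319) and higher in ADQ than in AV (0.20 ± 0.09, p = 0.0251).

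Of 23 upstream kinases, receptors and factors, 3 were lower in AV than in YNG (13%, against 21.3% of all genes), 2 were higher and 2 lower in AA (17.4%, against 26.6%), and 4 were higher and 3 lower in ADQ (30.4%, against 28.1%). In AA against ADQ 2 were higher (8.7%, against 4.53%), and in ADQ against AV 1 was higher and 1 lower (8.7%, against 9.32%). In AA against AV none passed (limma). Elk1, the SRF partner, was lower than YNG in all 3 older groups, by -0.35 in AV (p = 0.00817), -0.41 in AA (p = 0.00301) and -0.47 in ADQ (adjusted p = 0.0276). Only the difference in ADQ kept an adjusted p below 0.05. Crebbp, the CREB-binding coactivator, was higher than YNG in AA (0.33 ± 0.15, p = 0.0287) and ADQ (0.41 ± 0.15, p = 0.00814). Grin2a, an NMDA receptor subunit, was higher than YNG in AA (0.38 ± 0.17, p = 0.0314) and ADQ (0.49 ± 0.17, p = 0.00671).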

How the data were processed

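Poly(A) RNA-seq libraries of the DG were analysed, 1 per rat. In Partek Flow the authors trimmed the reads, ran STAR against rn6, left out genes with few counts and scaled by the median ratio (the submitters' processing notes name STAR 2.5.3a and DESeq2). The annotation and the counting model are not given in the sources used here. The deposited table holds signal values, that is counts that the authors had scaled by library. The rows of a gene were summed (24694 rows, 18347 genes). Reads came out whole for 81.2% to 85.2% of genes per library, so no count model was used. Since the labels of the older rats give age alone, the deposited attributes table, matched by rat name, supplied their treatment.

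Values were taken as log2(value + 1), genes with a mean of at least 5 were kept (15598), and 1 fit of all 4 groups was made in limma 3.58.1 (R 4.3.3, two-sided, trended empirical Bayes), tested first on simulated data. The threshold was an unadjusted p of 0.05. The rats of a group are separate animals. Permutations, correlations and figures used Python 3.11.15 with numpy 2.4.6, scipy 1.17.1, pandas 2.3.3 and matplotlib 3.10.9. The alternatives were other pseudocounts, filters, scalings and row choices, robust or weighted fits, the run of rat numbers, marker covariates, a permutation test and leaving out each rat. The 10 genes, the lists and the marker genes were chosen with earlier results of these data known. Each list is given by its counts and by the 3 genes with the smallest p over the 6 comparisons, and the 8 genes most like the mean by r. Kcnj13, Prlr, Folr1, Iyd, Ogn, Tdo2 and Lct of the marker lists had means below 5, and Pecam1 was not analysed here.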

Additional observations from a re-analysis of the deposited data

Results flagged for a closer look

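Npas4 in YNG rat V11, at 59.4, stood apart from the other 9 YNG rats, which ended at 36.7. The gap was 0.658 of the group's range (Dixon's test at the 95% level). The test was run on the YNG rats alone. ADQ rat 4004, the highest ADQ rat for each of the 10 genes, was therefore not put to it. Chance alone takes about 1 in 20 groups past the limit of this test, and 1 of the 10 genes was past it in YNG. Rat V11 also had the highest Egr2 of the YNG group, at 40.04.

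The differences of Fos and Dusp1 were not alike in the 2 runs of rat numbers, by the interaction term of the fit. The difference AA against ADQ was smaller in the lower-numbered than in the higher-numbered rats by -0.87 for Dusp1 (p = 0.0375) and by -0.80 for Fos (p = 0.0491). The difference ADQ against AV was larger, that is less negative, by 0.97 for Dusp1 (p = 0.0177) and by 1.02 for Fos (p = 0.0112). In the higher-numbered rats AV and ADQ share no block of numbers. For Dusp1 the difference ADQ against YNG was 0.60 in the lower-numbered and -0.60 in the higher-numbered rats, a gap of 1.203 (p = 0.00621). These 5 are 8.33% of the 60 terms of the 10 genes, where 10.2% of the terms of all genes passed, and their adjusted p over all genes was 0.327 to 0.998. By comparison, 4.37% of all genes passed in AA against ADQ, 4.03% in ADQ against AV and 8.89% in ADQ against YNG. The pooled 10.2% also holds AA against YNG (17.3%) and AV against YNG (21.8%), where none of the 10 genes passed.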

How the results depend on the processing

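No paired analysis was possible because the labels give the groups no shared replicate number. Of 320 values of single genes under 16 other settings, 282 kept direction and call, 37 kept the direction alone and 1 reversed, Dusp1 in ADQ against AV, at 0.0572 in the lower-numbered rats. Of 880 values with 1 rat left out, 822 kept the call, 58 lost it and 0 reversed. The other pseudocounts, filters and robust fit kept all 20 calls, and scaling by the total kept 19.

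Counts of called genes that moved by more than 1.5 times, and the range without 1 rat, were as follows. In AV against YNG (2 genes) the count was 1 with the row of highest mean, where 20% of all genes were called. It was also 1 in the higher-numbered rats (6.31%) and with the choroid plexus covariate (18.7%). In the lower-numbered rats it was 0 (33.4% of all genes), and without 1 rat 1 to 3. In AA against YNG (6) it was 3 in the lower-numbered rats (28.6% of all genes), and 5 to 6 without 1 rat. Smaller shifts there were to 5 in the higher-numbered rats (12.4% of all genes) and with the row of highest mean (25.4%), where Fosb was lost. With array weights the count was 4 (45.3% of all genes), and with scaling by the total it was 7 (33.2%). In ADQ against YNG (1) it was 0 with the row of highest mean (26.6% of all genes) and 5 with array weights (51.9%). Without 1 rat it was 1 to 3. In AA against AV (1) it was 0 with array weights (5.9% of all genes), a fit of the 2 groups compared (3.08%) and the run as covariate (4.64%). It was also 0 in the lower-numbered (3.85%) and higher-numbered rats (4.21%), with the CA1 covariate (5.32%) and by the permutation test. Without 1 rat it was 0 to 2. In ADQ against AV (3) it was 7 with array weights (12.4% of all genes), 0 in the lower-numbered (5.67%) and 6 in the higher-numbered rats (9.74%). It was 1 by the permutation test, and 1 to 6 without 1 rat. In AA against ADQ (7) it was 0 in the lower-numbered rats (5.98% of all genes), and 6 to 9 without 1 rat. Smaller shifts there were to 6 by the permutation test and to 10 with array weights (10.2%). The count was 8 in the higher-numbered rats (4.15%), with the run as covariate (4.86%) and with scaling by the total (3.81%). The runs alone hold 4 to 6 rats per group, and the cause of the other shifts was not tested.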

Other observations

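Within the groups, the median correlation over the 45 pairs of genes was 0.203 for the 10 YNG rats, 0.472 for the 12 AV rats, 0.619 for the 11 AA rats and 0.755 for the 11 ADQ rats. The differences between these values were not tested. Rat 4004 was the highest ADQ rat for each of the 10 genes, and the ADQ value was not computed without it. Fosb went with the other genes more closely in the lower-numbered rats, where its 9 pairs had a median r of 0.481, than in the higher-numbered rats, where the median was -0.118, which was likewise not tested.

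The genes that ran most against the mean of the 10, named after their values were seen, were Smarca2 (r = -0.630), a chromatin remodeling ATPase, Spg11 (-0.626) and Gopc (-0.603). Among the other marker lists, r with the mean of the 10 was -0.302 for CA3 pyramidal and mossy cells, 0.184 for microglia, 0.186 for astrocytes, 0.136 for endothelial cells, 0.189 for meninges and 0.0566 for red blood cells, over 44 rats with group means removed.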
